A study of Homo sapiens with 15 samples.

Results

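This account follows 38 human genes that handle misfolded protein in BEAS-2B cells, an immortalized line of bronchial epithelial cells, exposed to polyethylene terephthalate nanoplastics (PET-NPLs). The genes are a list of names, drawn up with earlier results of these data known. Of them, 28 belong to the unfolded protein response of the endoplasmic reticulum (ER), 7 are cytosolic heat shock genes, 2 encode the mitochondrial chaperonin, and SERPINH1 encodes the ER chaperone of collagen. They are 38 of the 28395 genes of the count table, and every one of them passed the filter on low counts that left 16740 genes for testing. Total RNA, depleted of ribosomal RNA, was sequenced from 15 samples. PET-NPLs were given at 50 µg/mL for 24 h (2 exposed and 2 control samples), 15 weeks (2 exposed and 2 control samples) or 30 weeks (4 exposed and 3 control samples). Controls were nonexposed BEAS-2B cells passaged in parallel. Nothing stated that the replicates came from separate cultures, so p-values measure the spread between these samples, which may be technical. That spread was uneven. Between replicates the coefficient of variation was 0.199 in 30-week samples, 0.0777 in 15-week samples and 0.108 in 24 h samples. The main fit shared its estimate of spread across all 15 samples. Early tests thus borrowed from the wider 30-week spread, and 30-week tests from the narrower early one. Numbers of calls therefore cannot be compared directly between times. The 24 h and 15-week samples are labelled batch 1 and the 30-week samples batch 2, so every exposed group was compared with controls of its own batch, while 30 weeks and batch 2 cannot be told apart.

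The unfolded protein response is run by 3 sensors in the ER membrane. ATF6 is cut in the Golgi to release a transcription factor, ERN1 (IRE1) splices the mRNA of XBP1, and EIF2AK3 (PERK) phosphorylates the translation factor eIF2, which lowers protein synthesis and favours translation of ATF4. The resulting factors raise ER chaperones, disulfide isomerases and the machinery of ER-associated degradation, and under lasting stress CHOP, the product of DDIT3. The cytosolic heat shock response is a separate program driven by heat shock factor 1. XBP1 splicing, ATF6 cleavage and phosphorylation are not seen in counts per gene, so the values below are mRNA levels only.

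The libraries held 23143202 to 31459990 gene counts each. Levels are given in CPM (counts scaled to library size by the TMM method), and 1 CPM stood for 23.3 to 33.9 counts. Of all counts, 6 small noncoding RNAs took 22.3% to 31% in 30-week controls and 17% to 21.5% in exposed cells of 30 weeks. In batch 1 their share was 9.75% to 12.9%. Control replicate 1 of 30 weeks had the highest share, 31%, and the lowest TMM factor, 0.7393. With these RNAs left out, the same 9 of the 38 genes were called at 30 weeks. Exposed replicate 2 at 30 weeks stood apart from the other exposed 30-week samples, with correlations of log2 CPM of 0.976 to 0.981, whereas each of the other 3 correlated with another exposed sample at 0.991. For 17 of the 38 genes it was the highest of the 4 exposed samples and for 15 the lowest, so values without it are given where they matter. Control and exposed cells at 30 weeks also differed in marker genes: the summed level of 11 bronchial epithelial markers was 313 to 409 CPM in controls and 877 to 1096 CPM in exposed cells, and that of 12 skeletal muscle markers was 441.5 to 536 CPM in controls and 77.0 to 95.2 CPM in exposed cells. In batch 1 these sums were 778 to 1031 CPM and 111 to 181 CPM. The epithelial sum rested on KRT8 and KRT18, since TP63, NKX2-1 and FOXA2 had at most 3 counts in any sample, KRT5 at most 12, SCGB1A1 at most 11, EPCAM at most 24 and CDH1 at most 27. MYOD1 reached 2461 counts and CHRNA1 1343, while CKM had at most 3. The highest counts on the muscle list were those of TNNT1 (5651) and TTN (4253). TTN and MYH3 (160) had their highest counts in batch 1, unlike TNNT1, MYOD1 and CHRNA1. The part of these differences in the results below was not tested. Fewer cells of a type and less RNA per cell cannot be told apart in such samples.

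At 24 h none of the 38 genes was called between exposed and control cells. By edgeR's quasi-likelihood test with Benjamini-Hochberg adjustment over all genes, 0 passed an adjusted p of 0.05, as did 0% of the 16740 genes tested. At an unadjusted p of 0.05, 0 of the 38 passed, against 277 of all genes, and DESeq2 and limma-voom also called 0. The log2 fold changes lay between -0.38 (SDF2L1) and 0.30 (ATF4), with a median of 0.02. The 95% interval for HSPA5, which encodes the ER chaperone BiP, ran from -0.61 to 0.38, so a doubling of this gene at 24 h lay outside it.

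At 15 weeks 0 of the 38 genes were again called by edgeR, by DESeq2 and by limma-voom, as were 0% of all genes by edgeR. Unadjusted p-values under 0.05 were given by 2 of the 38, both with lower levels in exposed cells. Over all genes 823 of 16740 gave such a p-value, a similar share. ATF4, the central transcription factor of the integrated stress response, had a log2 fold change of -0.38 (SE 0.172, adjusted p = 0.996 by edgeR), with 191.7 and 196.6 CPM in controls and 152.5 and 146 CPM in exposed cells. Its target PPP1R15A (GADD34), which guides the phosphatase that reverses eIF2 phosphorylation, had -0.37 (SE 0.145, adjusted p = 0.936 by edgeR). Among the 38 genes, 26 had a negative fold change at 15 weeks, with a median of -0.05. Of all 16740 tested genes, 8173 had a negative fold change. When the 15-week samples were fitted alone, ATF4 was the 1 gene called.

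At 30 weeks 6 genes were higher in exposed cells (HSPA5, HSP90B1, ATF6, EIF2AK3, TRIB3 and ASNS) and 3 were lower (CHAC1, HERPUD1 and SERPINH1). The 6 make up 15.8% of the 38, against 12.0% of all tested genes called higher, and the 3 make up 7.89%, against 11.7% called lower. In both directions together 23.7% of the 38 were called, which was also the share of all tested genes, so the number of calls does not set these genes apart. For 17 of the 38 (44.7%) the ranges of the 2 groups were separate, against 27.3% of all genes. The median log2 fold change was 0.05, beside 0.01 for all genes. Of the 9 calls, 8 fell among the 28 unfolded protein response genes (28.6%, beside 23.7% of all genes) and 1 was SERPINH1. Of the 7 cytosolic heat shock genes 0 were called, and 0 of the 2 mitochondrial genes, groups too small to set apart from the share of all genes. Without exposed replicate 2 the number of genes called was 16, the 7 added ones being ATF4, CEBPB, PPP1R15A and HSPE1 on the lower side and PDIA3, EDEM1 and BAG3 on the higher side. Calls over all genes grew as well, from 2009 higher and 1952 lower to 2705 and 2999. Without control replicate 1 the number of the 38 called was 7. With the 30-week samples fitted alone it was 5, and ATF6, EIF2AK3, TRIB3 and HSP90B1 were lost. Calls over all genes fell too, to 1317 higher and 1174 lower without control replicate 1, and to 1150 and 1220 with 30 weeks alone. The plot of fold changes by role shows the 3 time points side by side.

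**Figure D1:**
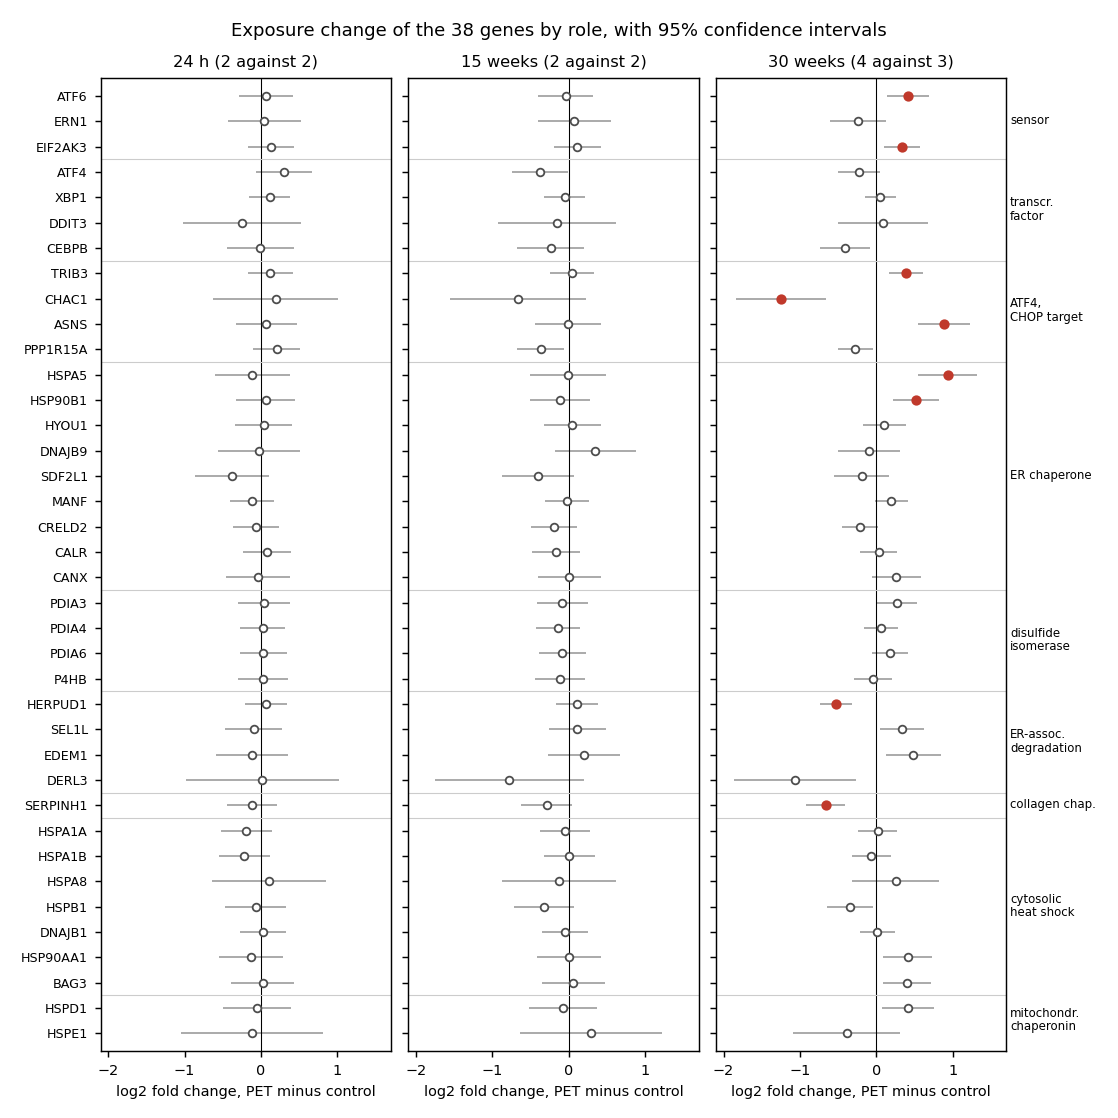
Log2 fold change of exposed against control cells for each of the 38 genes, grouped by role, at 24 h, 15 weeks and 30 weeks; points are edgeR estimates, lines their 95% confidence intervals, and filled red points passed an adjusted p of 0.05. Filled points appear only at 30 weeks, 6 to the right of 0 and 3 to the left, and none lies among the cytosolic heat shock or mitochondrial genes.

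Among the 3 sensors, the mRNAs of ATF6 and EIF2AK3 rose at 30 weeks and that of ERN1 did not. ATF6 stood at 32.2, 41.1 and 36.9 CPM in the 3 controls and at 49.7, 60.3, 42.8 and 43.6 CPM in the 4 exposed samples. The groups did not overlap, and the log2 fold change was 0.42 (SE 0.131, adjusted p = 0.0296 by edgeR). In batch 1 ATF6 ran from 60.0 to 69.6 CPM, above every 30-week sample but exposed replicate 2. EIF2AK3 stood at 16.1, 20.8 and 19.9 CPM in controls and at 24.6, 24.5, 22.1 and 24.5 CPM in exposed samples. Its log2 fold change was 0.33 (SE 0.112, adjusted p = 0.0403 by edgeR), and this call was made in 7 of 16 alternative analyses, with adjusted p-values from 0.0213 to 0.24. The ATF6 call was made in 12 of the 16, with adjusted p-values from 0.0185 to 0.133. Without control replicate 1 neither was called (adjusted p = 0.133 for ATF6 and 0.171 for EIF2AK3 by edgeR). ERN1 averaged 3.38 ± 0.339 CPM (SD, n = 3) in the controls. In exposed cells it averaged 2.85 ± 0.322 CPM (SD, n = 4), and its log2 fold change of -0.25 had a 95% interval from -0.61 to 0.12.

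None of the 4 transcription factors was called at 30 weeks by edgeR, DESeq2 or limma-voom, and 1 of them had an unadjusted p under 0.05. That one was CEBPB, a partner of the stress factors at their target promoters, at 17.0, 13.6 and 12.9 CPM in controls and 10.2, 11.8, 10.4 and 11.1 CPM in exposed cells. The groups did not overlap, but the log2 fold change of -0.41 missed the threshold (SE 0.156, adjusted p = 0.067 by edgeR). ATF4 had -0.23 (95% interval -0.50 to 0.05), and -0.34 without exposed replicate 2 (adjusted p = 0.0194 by edgeR). XBP1 had 0.05 (95% interval -0.15 to 0.26). DDIT3, the proapoptotic factor CHOP, rested on 1 library: exposed cells gave 9.13, 23.8, 10.1 and 9.05 CPM, beside 13.7, 13.2 and 9.91 CPM in controls. With all samples its log2 fold change was 0.08 (adjusted p = 0.866 by edgeR), and without exposed replicate 2, the sample at 23.8 CPM, it was -0.38 (adjusted p = 0.0614 by edgeR).

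Targets of ATF4 and CHOP moved in opposite directions at 30 weeks. ASNS, which makes asparagine, stood at 3.65, 3.39 and 3.62 CPM in controls and at 6.99, 7.39, 6.12 and 5.77 CPM in exposed cells. Every exposed sample lay above every control, with a log2 fold change of 0.89 (SE 0.160, adjusted p = 0.000769 by edgeR). TRIB3, a pseudokinase induced by CHOP, stood at 33.8, 29.5 and 26.3 CPM in controls and 38.7, 39.2, 37.4 and 40.9 CPM in exposed cells. It rose by a smaller step, 0.39 on the log2 scale (SE 0.106, adjusted p = 0.0143 by edgeR). CHAC1, which breaks down glutathione and is among the genes most readily induced by ATF4, went the other way, with 2.71, 2.38 and 1.97 CPM in controls and 0.978, 1.16, 0.695 and 1.13 CPM in exposed cells. This was the largest called change of the 38, with a log2 fold change of -1.24 (SE 0.279, 95% interval -1.84 to -0.65, adjusted p = 0.00412 by edgeR). PPP1R15A had -0.27 and overlapping groups (adjusted p = 0.0835 by edgeR). ASNS and CHAC1 were called in all 16 alternative analyses, and TRIB3 in 14. The sequence of ASNS lies almost wholly, for 99.5% of its windows of 100 bases, within another annotated gene model as well, and how the counting treated such overlaps was not stated.

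Among 9 ER chaperones, HSPA5 and HSP90B1 rose and the other 7 were not called. HSPA5 (chr9:125234853-125241343, minus strand, 8 exons) encodes BiP, the abundant ER chaperone that holds the sensors inactive in unstressed cells. It stood at 138.5, 138.9 and 198 CPM in controls and at 377.5, 210.0, 315 and 306 CPM in exposed cells. The lowest exposed sample, replicate 2, lay just above the highest control. Its log2 fold change was 0.93 (SE 0.182, 95% interval 0.55 to 1.32, adjusted p = 0.00149 by edgeR), the largest increase of the 38, and 1.07 without exposed replicate 2. In batch 1 HSPA5 lay between 156 and 206 CPM in both arms, a range that the 30-week controls overlapped and above which all 4 exposed samples lay. The median log2 fold change of the 679 tested genes on chromosome 9, where HSPA5 lies, was 0.19 at 30 weeks.

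HSP90B1 (GRP94, the ER member of the HSP90 family) stood at 227, 301 and 308 CPM in controls and 421, 469, 329 and 373 CPM in exposed cells. The log2 fold change was 0.51 (SE 0.141, adjusted p = 0.0149 by edgeR), and the call was lost without control replicate 1, at an adjusted p of 0.0733. Unlike HSPA5, both 30-week groups lay below batch 1, where HSP90B1 ran from 575 to 761 CPM. The 7 others had log2 fold changes from -0.22 (CRELD2) to 0.26 (CANX). MANF, a secreted protein that binds BiP, was higher in each exposed sample than in each control (36.3 to 41.1 CPM against 41.2 to 48.7 CPM), and CRELD2 was lower in each (36.7 to 38.5 CPM against 29.9 to 36.5 CPM), yet neither passed the test (adjusted p = 0.184 and 0.17 by edgeR). CALR, the lectin calreticulin, averaged 1218 ± 45.0 CPM (SD, n = 3) in the controls. Its average in exposed cells was 1246 ± 53.9 CPM (SD, n = 4), and the 95% interval of -0.21 to 0.27 on the log2 scale left room for only a small change. The BiP cochaperones DNAJB9 and SDF2L1 and the exchange factor HYOU1 had -0.10, -0.19 and 0.11.

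The 4 disulfide isomerases, which form and shuffle disulfide bonds in the ER, were not called at 30 weeks by edgeR, DESeq2 or limma-voom, with log2 fold changes from -0.05 (P4HB) to 0.27 (PDIA3). PDIA3 had the only unadjusted p under 0.05 among them, at 137 to 141 CPM in controls and 143 to 202 CPM in exposed cells (adjusted p = 0.124 by edgeR). Part of its sequence, 8.1% of windows of 100 bases, is shared with the pseudogene PDIA3P1.

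Of the 4 genes of ER-associated degradation, 1 was called. HERPUD1, an ER membrane protein that recruits the ubiquitin ligase and is a standard readout of ER stress, stood at 58.0, 51.0 and 49.5 CPM in controls and 36.9, 33.9, 39.0 and 36.2 CPM in exposed cells. It fell by 0.53 on the log2 scale (SE 0.0996, adjusted p = 0.00103 by edgeR), was called in all 16 alternatives, and lay in exposed cells near the 15-week range of 34.4 to 39.3 CPM. It was the 1 gene of the 38 whose exposure effect differed between 30 and 15 weeks, where the difference was -0.64 (SE 0.165, 95% interval -0.99 to -0.29, adjusted p = 0.035 by edgeR), against 4.74% of all tested genes. That call was lost without any 1 of the 4 samples of 15 weeks, without control replicate 1, and without exposed replicate 1 or 4 of 30 weeks. EDEM1, which hands misfolded glycoproteins on for degradation, and SEL1L, the scaffold of the HRD1 ligase, had 0.48 and 0.34 (adjusted p = 0.0505 and 0.0864 by edgeR). DERL3 had -1.06 (SE 0.378, adjusted p = 0.0518 by edgeR) at low counts, 0.350 to 0.543 CPM in exposed cells against 0.650 to 1.65 CPM in controls.

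SERPINH1 (HSP47) folds procollagen in the ER and is regulated as a heat shock gene. It stood at 174, 159.6 and 169 CPM in controls and 111, 84.9, 112 and 114 CPM in exposed cells, with no overlap. It fell by 0.67 on the log2 scale (SE 0.118, adjusted p = 0.000654 by edgeR), the smallest adjusted p of the 38, and was called in all 16 alternatives. The gene is also on a list that the study chose on these samples for its lower expression, so its direction here is not independent evidence. Across both arms of batch 1 it ran from 133 to 156 CPM at 24 h and from 48.4 to 65.4 CPM at 15 weeks.

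The 7 cytosolic heat shock genes held 0 calls at 30 weeks by edgeR and 0 by limma-voom, with a median log2 fold change of 0.02 and overlapping groups for all 7. Of these, 3 had an unadjusted p under 0.05: HSP90AA1 (0.41) and BAG3 (0.40) on the higher side and HSPB1 (-0.34) on the lower, with adjusted p-values of 0.0618, 0.0633 and 0.0923 by edgeR. DESeq2 called 2 of the 7, HSP90AA1, the inducible cytosolic HSP90, and BAG3, the cochaperone that steers clients to autophagy. HSPA1A and HSPA1B, the strongly inducible HSP70 genes, had small fold changes. HSPA1A stood at 190, 166 and 198 CPM in controls and 191, 168, 189 and 199.8 CPM in exposed cells. Its 95% interval ran from -0.24 to 0.27 on the log2 scale, and that of HSPA1B from -0.32 to 0.19. Of their sequence, 72.4% and 72.8% of windows of 100 bases recur elsewhere, nearly all in each other, so the split of reads between this pair is uncertain. DNAJB1, their J-domain partner, had 0.01 (95% interval -0.22 to 0.25).

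HSPA8, the constitutive HSP70 and the most abundant of the 38 per kilobase of transcript in every control group, turned on 1 library. Controls had 1652, 1776 and 1254 CPM, and exposed cells 1426, 3317, 1390 and 1310 CPM. With all samples the log2 fold change was 0.25 (adjusted p = 0.543 by edgeR), and without exposed replicate 2 it was -0.18 (adjusted p = 0.341 by edgeR). Batch 1 ran from 3425 to 4774 CPM, so the 1 sample at 3317 CPM lay nearer to that batch than to its own group.

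HSPD1 (HSP60) and HSPE1 (HSP10), the 2 parts of the mitochondrial chaperonin, lie head to head on chromosome 2 and are transcribed in opposite directions. HSPD1 stood at 215, 214 and 204 CPM in controls and 262, 389, 242 and 229 CPM in exposed cells, with no overlap and a log2 fold change of 0.41 (SE 0.162, adjusted p = 0.0759 by edgeR). HSPE1 had -0.39 with a wide 95% interval, from -1.09 to 0.31, and ran from 51.5 to 124 CPM in controls and 36.8 to 119 CPM in exposed cells. Neither was called by edgeR, DESeq2 or limma-voom without surrogate variables, and HSPD1 had the 1 unadjusted p under 0.05. HSPD1 was called by limma-voom with surrogate variables and, by edgeR, without exposed replicate 4. HSPE1 shares 31.7% of its windows with other genes, mainly the joined gene HSPE1-MOB4.

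The levels of the 28 unfolded protein response genes and of the 7 cytosolic heat shock genes were also added up across the 6 conditions. The sum over unfolded protein response genes was 5005 to 5116 CPM in 30-week controls and 5432 to 5675 CPM in exposed cells, so that the ranges did not overlap. The largest parts of the difference between the group means came from CANX (147 CPM), HSPA5 (144 CPM) and HSP90B1 (119 CPM), and CANX was at 1161 CPM in exposed replicate 2 and at 765 to 828 CPM in the other exposed samples. Without HSPA5 and HSP90B1 the ranges of the sum were 4565 to 4693 CPM and 4753 to 4996 CPM. The heat shock sum was 2476 to 2876 CPM in 30-week controls and 2506 to 4685 CPM in exposed cells, with only replicate 2 above 2806 CPM. HSPA8 made up 50.7% to 70.8% of that sum at 30 weeks, and without it the ranges were 1100 to 1222 CPM in controls and 1196 to 1379 CPM in exposed cells. The heat shock sum of batch 1 was 4846 to 6315 CPM, and without HSPA8, the bulk of it, 1413 to 1634 CPM, so most of the step between the batches lay in this 1 gene. In batch 1 the 2 sums were near each other in every sample, with a ratio of unfolded protein response to heat shock level between 0.967 and 1.15. At 30 weeks the ratio was 1.74 to 2.07 in controls and 2.00 to 2.17 in exposed replicates 1, 3 and 4, and 1.21 in exposed replicate 2. These sums are descriptions and were given no test.

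Exact matches in promoter sequences show which of these genes hold 1 fixed form of each known stress element. A gene without a match may hold another form, or one outside the stretch searched. The heat shock element, for example, was matched in only 2 of the 7 cytosolic heat shock genes. RefSeq promoters on GRCh38.p14, from 250 bases before to 50 after the start, were found for 36 of the 38 genes (not PDIA3 and DERL3) and searched on both strands for exact matches, and only matches ending before the start are shown. The ER stress element, CCAAT and CCACG separated by 9 bases, was present in 25 of 27305 genes (0.09%), and 7 of them were among the 26 unfolded protein response genes with a promoter: HSPA5, HSP90B1, XBP1, PDIA6, CANX, CALR and CRELD2. Its compact form (ATTGG, 1 base, CCACG) was present in 19 genes (0.07%), among them HERPUD1, HYOU1 and SDF2L1. HYOU1 also held the unfolded protein response element TGACGTGG (0.93% of genes), which overlaps its compact element. The CEBP-ATF element bound by ATF4 (TGATG, 1 base, AA) was present in 1217 genes (4.46%), here in ASNS, CHAC1 and HERPUD1, and the heat shock element (GAA, 2 bases, TTC, 2 bases, GAA) in 166 (0.61%), here in HSPA8, HSP90AA1, HSPD1 and SERPINH1. Capitals mark the bases of the element in the following windows, read 5′ to 3′ along the gene's own strand, and an element on the opposite strand appears as its complement.
HSPA5, ER stress element 48 to 66 bases before the start (chr9:125241351-125241449, minus strand): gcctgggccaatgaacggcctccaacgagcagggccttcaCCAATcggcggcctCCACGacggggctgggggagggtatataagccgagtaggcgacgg
HSP90B1, ER stress element 71 to 89 bases before the start (chr12:103930306-103930354, plus strand): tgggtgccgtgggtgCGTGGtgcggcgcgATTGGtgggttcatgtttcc
XBP1, ER stress element 34 to 52 bases before the start (chr22:28800588-28800636, minus strand): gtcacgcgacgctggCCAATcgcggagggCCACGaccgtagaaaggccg
HERPUD1, compact ER stress element 107 to 117 bases before the start (chr16:56932010-56932050, plus strand): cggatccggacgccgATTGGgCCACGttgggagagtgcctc
HERPUD1, CEBP-ATF element 169 to 176 bases before the start (chr16:56931951-56931988, plus strand): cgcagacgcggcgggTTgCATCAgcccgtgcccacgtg
ASNS, CEBP-ATF element 61 to 68 bases before the start (chr7:97872454-97872491, minus strand): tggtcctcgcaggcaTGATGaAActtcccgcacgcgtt
CHAC1, CEBP-ATF element 202 to 209 bases before the start (chr15:40953247-40953284, plus strand): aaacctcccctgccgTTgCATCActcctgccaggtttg
SERPINH1, heat shock element 64 to 76 bases before the start (chr11:75562162-75562204, plus strand): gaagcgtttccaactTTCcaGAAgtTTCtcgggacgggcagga
HSPA8, heat shock element 43 to 55 bases before the start (chr11:123062164-123062206, minus strand): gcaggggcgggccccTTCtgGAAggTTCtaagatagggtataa

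These windows are shown because genes with the same element did not move alike at 30 weeks. Of the 7 genes with the ER stress element, 2 rose and 5 were not called, with log2 fold changes from -0.22 to 0.93. Of the 3 with the compact element, HERPUD1 fell and the other 2 were not called. Of the 3 with the CEBP-ATF element, ASNS rose while CHAC1 and HERPUD1 fell. Of the 4 with a heat shock element, SERPINH1 fell and the other 3 were not called. A match describes letters in these windows and does not show that a factor bound there.

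**Figure D2:**
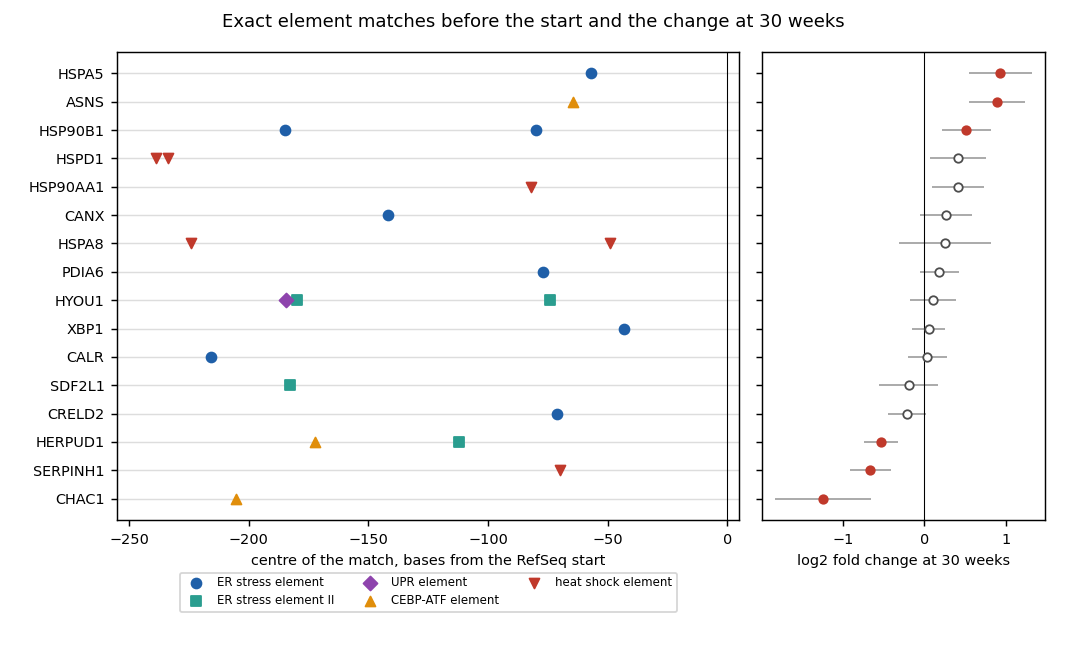
Position of each exact element match before the RefSeq start (left, in bases from the start, centre of the match) and log2 fold change at 30 weeks with its 95% confidence interval (right; filled red points passed an adjusted p of 0.05) for the 16 genes with a match, ordered by fold change. HSPA5 and HERPUD1 carry ER stress elements of the usual and the compact form toward opposite ends of the order, as ASNS and CHAC1 do the CEBP-ATF element.

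Controls of different times were compared as well. In controls of batch 1, 1 of the 38 was higher at 15 weeks than at 24 h (HSPB1, 0.57), against 12.7% of all tested genes, and 6 were lower, against 12.2%. Together 18.4% of the 38 were called, below the share of all tested genes, 24.9%. The 6 were ASNS (-1.85), SERPINH1 (-1.20), SEL1L (-0.88), ATF4 (-0.58), HSP90AA1 (-0.56) and HERPUD1 (-0.45), with adjusted p-values up to 0.0496 by edgeR. ASNS had the largest change, at 14.6 to 19.6 CPM in the 4 samples of 24 h and 4.16 to 5.23 CPM in the 4 of 15 weeks. The increase of ASNS in exposed cells at 30 weeks, to between 5.77 and 7.39 CPM, stayed below its level at 24 h. Those samples lie in different batches, so time and batch cannot be told apart in that comparison. Without any 1 of the 4 control libraries of 24 h and 15 weeks, 3 or 4 of these 7 calls were left.

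Between the controls of 15 and 30 weeks, which differ in batch too, 12 genes were called higher, against 25.6% of all tested genes, and 11 lower, against 24.6%. The split ran through the families. Of the 7 cytosolic heat shock genes, HSPA8 (-1.38), HSPA1A (-1.0) and HSPA1B (-0.81) were lower and HSPB1 (1.06) and BAG3 (0.55) higher. The chaperonin partners parted, HSPD1 at -1.44 and HSPE1 at 1.18. Among ER genes, HSP90B1 (-1.19), CANX (-1.02) and EIF2AK3 (-1.23) were lower and CHAC1 (1.58), HERPUD1 (0.61) and CALR (0.49) higher, and SERPINH1 was higher by 1.39. All these had adjusted p-values of at most 0.0256 by edgeR. For HERPUD1 and CHAC1 the control at 30 weeks was thus higher than at 15 weeks, while the exposed cells of 30 weeks, at 36.5 ± 2.10 and 0.989 ± 0.211 CPM (SD, n = 4), lay near the 15-week control means of 34.7 and 0.788 CPM. Time and batch cannot be told apart here.

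Beyond the 38 genes, other lists of the same pathways were examined at 30 weeks. Of 30 other genes of the integrated stress response, 12 rose and 1 fell, with a median log2 fold change of 0.27. NUPR1, a stress-induced chromatin protein, rose by 1.59, from 1.548 to 2.202 CPM in controls to 5.28 to 6.29 CPM in exposed cells. PSAT1, an enzyme of serine synthesis, rose by 0.73, and PPP1R15B, the constitutive counterpart of PPP1R15A, by 0.67. DDIT4, an inhibitor of mTORC1, fell by 2.08 on the log2 scale, from 54.0 to 78.5 CPM in controls to 11.6 to 18.8 CPM in exposed cells. The other 3 eIF2 kinases, EIF2AK1, EIF2AK2 and EIF2AK4, rose by 0.49, 0.52 and 0.51, with overlapping groups for EIF2AK1 and EIF2AK2 (chosen after their values were seen). All of these changes had adjusted p-values of at most 0.0191 by edgeR.

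Of 19 other ER folding genes, 4 rose and 0 fell, led by ERP44 (0.63), DNAJC3 (0.56) and ERO1A (0.43), which retrieve, assist and oxidize ER clients, with adjusted p-values of at most 0.0113 by edgeR. No gene of this list had an unadjusted p under 0.05 on the lower side. Of 22 other genes of ER-associated degradation and the translocon, 1 rose (UBE2G2, 0.59) and 2 fell (SEC61G, -0.75, and SSR4, -0.64, chosen after their values were seen), with a median of 0.0012. Of 28 other cytosolic chaperones, 5 rose, among them FKBP5 (0.88) and HSPH1 (0.72), and 1 fell, HSPB8 (-1.01), with a median of 0.11. Of the 8 subunits of the TRiC chaperonin, CCT8 rose (0.76). UBE2G2 and CCT8 lie on chromosome 21, where the median of 179 tested genes was 0.53. Of 12 other genes of mitochondrial quality control 2 rose (CLPX, 0.31, and TRAP1, 0.30) and GRPEL1 fell (-0.66). The named genes of these lists had adjusted p-values of at most 0.0453 by edgeR. The share of genes called was 43.3% on the integrated stress response list and 12.5% to 25% on the other 5 lists, beside 23.7% of all genes.

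Levels per kilobase of transcript, in CPM, spanned over 3 orders of size within the 38 genes. In 30-week controls HSPA8 led with 689, followed by CALR with 641 and P4HB with 354, while CHAC1 had 1.55, ASNS 1.49, ERN1 0.428 and DERL3 0.322. In controls of 24 h HSPA8 stood at 1755 and CALR at 452, a wider step between the first and the second gene. In exposed cells at 30 weeks the order began in the same way, with HSPA8 at 822, CALR at 655 and P4HB at 343, but HSPA8 rested on replicate 2.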

How the data were processed

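The authors trimmed reads with Rfastp and used Rsubread (featureCounts) for alignment to GRCh38 and for counting by gene. The deposited values are raw counts of 28395 genes by Entrez number in 15 samples, without normalization, and 27745 numbers matched a symbol. The library kit was stranded, but the strand setting and the handling of reads with several matches are not given in the sources used here. Depth was 23143202 to 31459990 counts.

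The 38 genes, the wider lists and the markers were chosen with earlier results of these data known. Genes were filtered with filterByExpr, scaled by TMM and fitted with edgeR 4.0.16 (quasi-likelihood, all samples, 1 mean per group) in R 4.3.3, and p-values were adjusted over all 16740 tested genes by the Benjamini-Hochberg method at 0.05. Each standard error was taken from the fit. All 38 genes are named, and from each wider list up to 3 called genes per direction with the largest change, at least 1 CPM and no overlap. The procedure was tested on simulated data with changes larger than any called among the 38 genes. That test does not show how it performs at the sizes called here. Alternatives were DESeq2 1.42.0, limma-voom (limma 3.58.1) without and with 2 surrogate variables (sva 3.50.0), upper-quartile scaling, no filter, each time point alone, glmQLFit without its legacy option, counts without 6 small noncoding RNAs, a replicate block, stricter thresholds and each replicate left out. Gene coordinates are from GENCODE, promoters from RefSeq (GRCh38.p14). An item of the wider lists is not reported here and was left out of their counts after the results had been seen.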

Additional observations from a re-analysis of the deposited data

Results flagged for a closer look

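In the 4 exposed samples at 30 weeks, 7 of the 38 genes had 1 sample far from the other 3 by Dixon's ratio at its 95% critical value, where chance flags about 1 in 20 groups. That rate holds for independent groups, and genes of the same samples are not independent. The ratio was not taken for other genes, so the count cannot be called particular to the 38. In 6 of the 7 it was replicate 2. Its level was high for DDIT3 (23.76 CPM, others 9.048 to 10.12), CANX (1161 CPM, others 764.6 to 828.1) and HSPA8 (3317 CPM, others 1310 to 1426). It was low for HYOU1 (209.8 CPM, others 290.9 to 295.9), P4HB (736.2 CPM, others 866.2 to 871.9) and SERPINH1 (84.94 CPM, others 111.4 to 113.7). For EIF2AK3 the distant sample was replicate 3, at 22.11 CPM beside 24.46 to 24.63 CPM.

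The exposure effect on HERPUD1 differed between 30 and 15 weeks by -0.6421 on the log2 scale (SE 0.165, adjusted p = 0.035 by edgeR's interaction contrast). All 4 exposed samples lay below the 3 controls at 30 weeks, and both exposed samples lay above both controls at 15 weeks. The 2 time points lie in different batches.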

How the results depend on the processing

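At 24 h 0 genes were called under every alternative, and at 15 weeks 1 (each time point fitted alone). Of the 9 genes called at 30 weeks, ASNS, CHAC1, HSPA5, HERPUD1 and SERPINH1 were called in all 16 alternatives that kept the threshold. The number called was 14 by DESeq2, 12 by limma-voom with surrogate variables (CANX, DERL3, BAG3 and HSPD1 added, EIF2AK3 lost), 5 with each time point alone, 5 at an adjusted p under 0.01, 1 at a fold change of at least 2 (CHAC1), and 7 to 16 with 1 replicate left out (16 without exposed replicate 2). Calls over all genes at 30 weeks moved as well, from 2009 higher and 1952 lower in the main fit. They were 2296 and 2140 by DESeq2, 2021 and 2098 with surrogate variables, and 1150 and 1220 with each time point alone. For the difference between 30 and 15 weeks the 1 call became 3 by DESeq2, 5 with surrogate variables, 0 at an adjusted p under 0.01, 0 at a fold change of at least 2 and 0 to 3 with a replicate left out; without the filter the 1 call was HSPA5 and not HERPUD1. The 7 calls between 24 h and 15-week controls became 13 with surrogate variables, 3 at an adjusted p under 0.01, 2 at a fold change of at least 2 and 3 to 4 with a replicate left out. The 23 calls between 15 and 30-week controls became 10 at a fold change of at least 2 and 17 to 22 with a replicate left out. Where a group of 2 lost a sample, the lone one was assumed to vary like the other groups. The cause of these differences was not tested.

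The signs that turned all belonged to genes not called at 30 weeks: DDIT3 (limma-voom -0.028, replicates left out -0.38 to 0.23), DNAJB9 (replicates left out -0.33 to 0.031), P4HB (surrogate variables 0.029, replicates left out -0.13 to 0.014), HSPA1A (upper quartile -0.012, replicates left out -0.054 to 0.073), HSPA1B (surrogate variables 0.0084), HSPA8 (replicates left out -0.18 to 0.40) and DNAJB1 (upper quartile -0.014, replicates left out -0.032 to 0.077). The median log2 fold change of all genes at 30 weeks was 0.00775 in the main fit. It ran from -0.0213 (upper-quartile scaling) to 0.0225 (without control replicate 1 of 30 weeks).

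Deviations of same-numbered samples from their group means correlated at -0.06 (24 h), 0.03 (15 weeks) and -0.12, 0.30 and 0.10 (30 weeks). In groups of 2 both replicate numbers give the same value, so these few correlations cannot settle whether samples were paired. With the replicate block, 8 genes were called at 30 weeks (without EIF2AK3), 0 for the difference between 30 and 15 weeks, and HSPA1A had -0.015.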

Other observations

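Among the wider cytosolic chaperones, CRYAB, a small heat shock protein abundant in muscle and lens, had the largest increase at 30 weeks (log2 fold change 2.48, SE 0.525, adjusted p = 0.00272 by edgeR), and DNAJA4, a J-domain protein, rose by 1.27 (SE 0.375, adjusted p = 0.0223 by edgeR). Both were chosen after their values were seen. Neither met the rule for naming genes of the wider lists, so each averaged under 1 CPM or had overlapping groups. Chromosome 22 holds 5 of the 38 genes (ATF4, XBP1, SDF2L1, CRELD2 and DERL3), and the median log2 fold change of its 398 tested genes at 30 weeks was -0.18. None of the 5 was called at 30 weeks by edgeR, and their part in the pattern of the chromosome was not tested.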
